A study of Mus musculus with 13 samples.

Results

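Slit2, Slit3, Robo1, Robo2, Sema3a, Sema3c, Sema3d, Plxna2 and Plxnd1 encode 4 arms of the guidance signalling that steers growing axons and migrating cells. They were taken by symbol from the gene list shared by the matrices, and are 9 of the 27998 genes measured. Slit2 and Slit3 encode secreted Slit ligands, and Robo1 and Robo2 encode the transmembrane receptors that bind them. Sema3a, Sema3c and Sema3d encode secreted class 3 semaphorins, and Plxna2 and Plxnd1 encode plexins, which receive semaphorin signals, most often together with a neuropilin co-receptor.

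As background, Slit binding to Robo and semaphorin binding to plexin both act on the actin cytoskeleton and on adhesion, and the usual outcome is repulsion of the responding cell. In the developing heart these genes are known for their part in outflow tract septation, in vessel patterning and in the formation of the septa and of the sinus venosus. Mice that lack Sema3c or Plxnd1 are known for defects of the outflow tract.

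The cells came from wild-type C57Bl/6J mice, with no transgene, deletion or treatment in any group. At E8.5 and E10.5 embryos without head and limbs were dissociated, so those libraries hold many tissues besides heart, and from E12.5 on, at E14.5, at E16.5 and at P3, the tissue was the heart. The sources differ on the enzyme (trypsin in the labels, collagenase II in the study's methods) and on the droplet chemistry (v2 and v3). Of 13 samples, 10 matrices were used: E8.5 replicate 2, replicates 1 and 2 of E10.5, E12.5, E14.5 and E16.5, and 1 matrix of P3 that pools the barcodes of 2 records and was treated as 1 sample. E8.5 replicate 1 was not analysed here, and the matrix of E16.5 replicate 1 stands for 2 records. Both libraries of a stage carry the same replicate number in their titles. Replicates 1 and 2 here follow the sample tags within the titles. The labels do not tie a library to an animal, so the p-values below measure only the spread between these libraries. E8.5 and P3 gave 1 matrix each, which entered no test. The study examined batches by eye and reported significant differences between them at P3 only.

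Barcodes with at least 2000 UMIs (unique molecular identifiers, each standing for 1 captured mRNA molecule) were kept, from 4928 to 14675 a library, with median UMIs from 10268 to 24516 and 60675246 to 236885067 UMIs in the kept barcodes. They were gated into classes by a few genes, and a gate is not a cell type. A barcode with Tnnt2, the cardiac troponin T gene, at 1000 CPM or more (CPM is the number of UMIs of a gene per 1000000 UMIs of the barcode or class) took a Tnnt2 class, Nppa-high where Nppa (atrial natriuretic peptide) also reached 1000 CPM and Nppa-low otherwise. Barcodes with 2 or more UMIs of Cdh5 (VE-cadherin), Upk3b (a mesothelial uroplakin) or Sox2 (a neural progenitor factor) took those classes, and of the rest those with Col1a1 (type I collagen) at 500 CPM or more took the Col1a1 class. Barcodes that passed several gates were left out, which also stands for the treatment of doublets, and no doublet caller was run. Libraries shared 0.714 to 1.326 times as many barcodes as random draws would give. In the heart libraries of E12.5 to E16.5 the summed level of 7 cardiomyocyte markers was 20845 to 25296 CPM in the Tnnt2 classes and at most 1097 in the others. The 7 endothelial markers summed to 1625 to 2298 in the Cdh5 class, and the 7 mesenchymal markers to 2386 to 9513 in the Col1a1 class. The Upk3b class held the highest epicardial sums but also mesenchymal sums of up to 10226, so it is called by its gate. Levels below are CPM of a class in a library, and in such sums fewer expressing cells and less RNA per cell cannot be told apart. Intervals on single samples are 95% exact Poisson intervals and cover counting error only.

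The genes lie on several chromosomes of the mouse genome (GRCm38, GENCODE annotation), and no other protein-coding gene overlaps any of them. Slit2 spans chr5:47983138-48307733 on the plus strand, and Sema3d, Sema3a and Sema3c lie on the same strand at chr5:12383385-12588948, chr5:13125414-13602565 and chr5:17574281-17730268. Slit3 spans chr11:35121224-35708507 (plus) and Plxna2 chr1:194618218-194816869 (plus). Robo1, at chr16:72308306-73046095 (plus), and Robo2, at chr16:73891839-74411825 (minus), are neighbours. Plxnd1, at chr6:115954811-115995005 (minus), is with 40.2 kb the shortest of the 9 loci.

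3 genes on which results below turn are Slit2, for its levels among Tnnt2 barcodes, Sema3d, which led in the Upk3b class, and Plxnd1, which led in the Cdh5 class. Their upstream sequences (RefSeq, GRCm38.p6) are shown to let a reader see how differently the promoters are composed. The Sema3d and Plxnd1 stretches end at the base before the RefSeq start, which for Plxnd1 is the GENCODE start and for Sema3d lies upstream of it. For Slit2 GENCODE starts the gene upstream of the RefSeq start, and the stretch ends at the base before the GENCODE start. All run 5′ to 3′ on the strand of the gene. Slit2, Sema3d and Plxnd1 are shown at chr5:47982905-47983137, chr5:12382916-12383165 and chr6:115995006-115995255 in that order. The Slit2 stretch holds 233 bases and the others 250. Capitals mark matches, on either strand, to the letters TATAAA of a TATA box, CCAAT of a CCAAT box, GGGCGG of a GC box, AGATAA of a GATA motif or AGGAAG of an ETS motif.
Slit2: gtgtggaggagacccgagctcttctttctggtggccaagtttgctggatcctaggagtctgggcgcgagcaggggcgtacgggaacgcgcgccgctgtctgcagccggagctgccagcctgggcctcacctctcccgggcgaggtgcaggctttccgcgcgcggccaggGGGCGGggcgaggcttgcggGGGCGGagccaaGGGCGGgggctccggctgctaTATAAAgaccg
Sema3d: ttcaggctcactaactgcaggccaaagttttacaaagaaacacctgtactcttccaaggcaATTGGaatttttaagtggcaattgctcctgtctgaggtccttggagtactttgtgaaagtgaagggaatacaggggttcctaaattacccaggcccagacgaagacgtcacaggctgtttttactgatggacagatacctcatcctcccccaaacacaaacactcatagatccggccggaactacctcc
Plxnd1: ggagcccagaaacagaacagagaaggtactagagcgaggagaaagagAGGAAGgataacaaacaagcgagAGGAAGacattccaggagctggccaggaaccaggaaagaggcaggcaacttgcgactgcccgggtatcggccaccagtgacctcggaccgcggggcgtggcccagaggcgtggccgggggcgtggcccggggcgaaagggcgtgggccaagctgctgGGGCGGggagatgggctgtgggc

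The Slit2 stretch held 1 TATAAA and 3 GGGCGG matches, the Sema3d stretch 1 CCAAT match on the other strand, and the Plxnd1 stretch 1 GGGCGG and 2 AGGAAG matches. Over all 32851 promoters of the same source, cut to 250 bases before the start, 12.4% held TATAAA, 33.9% CCAAT, 32.7% GGGCGG, 9.99% AGATAA and 29.5% AGGAAG. A match is a description of letters, not a binding site, and no match says nothing about a factor.

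**Figure D1:**
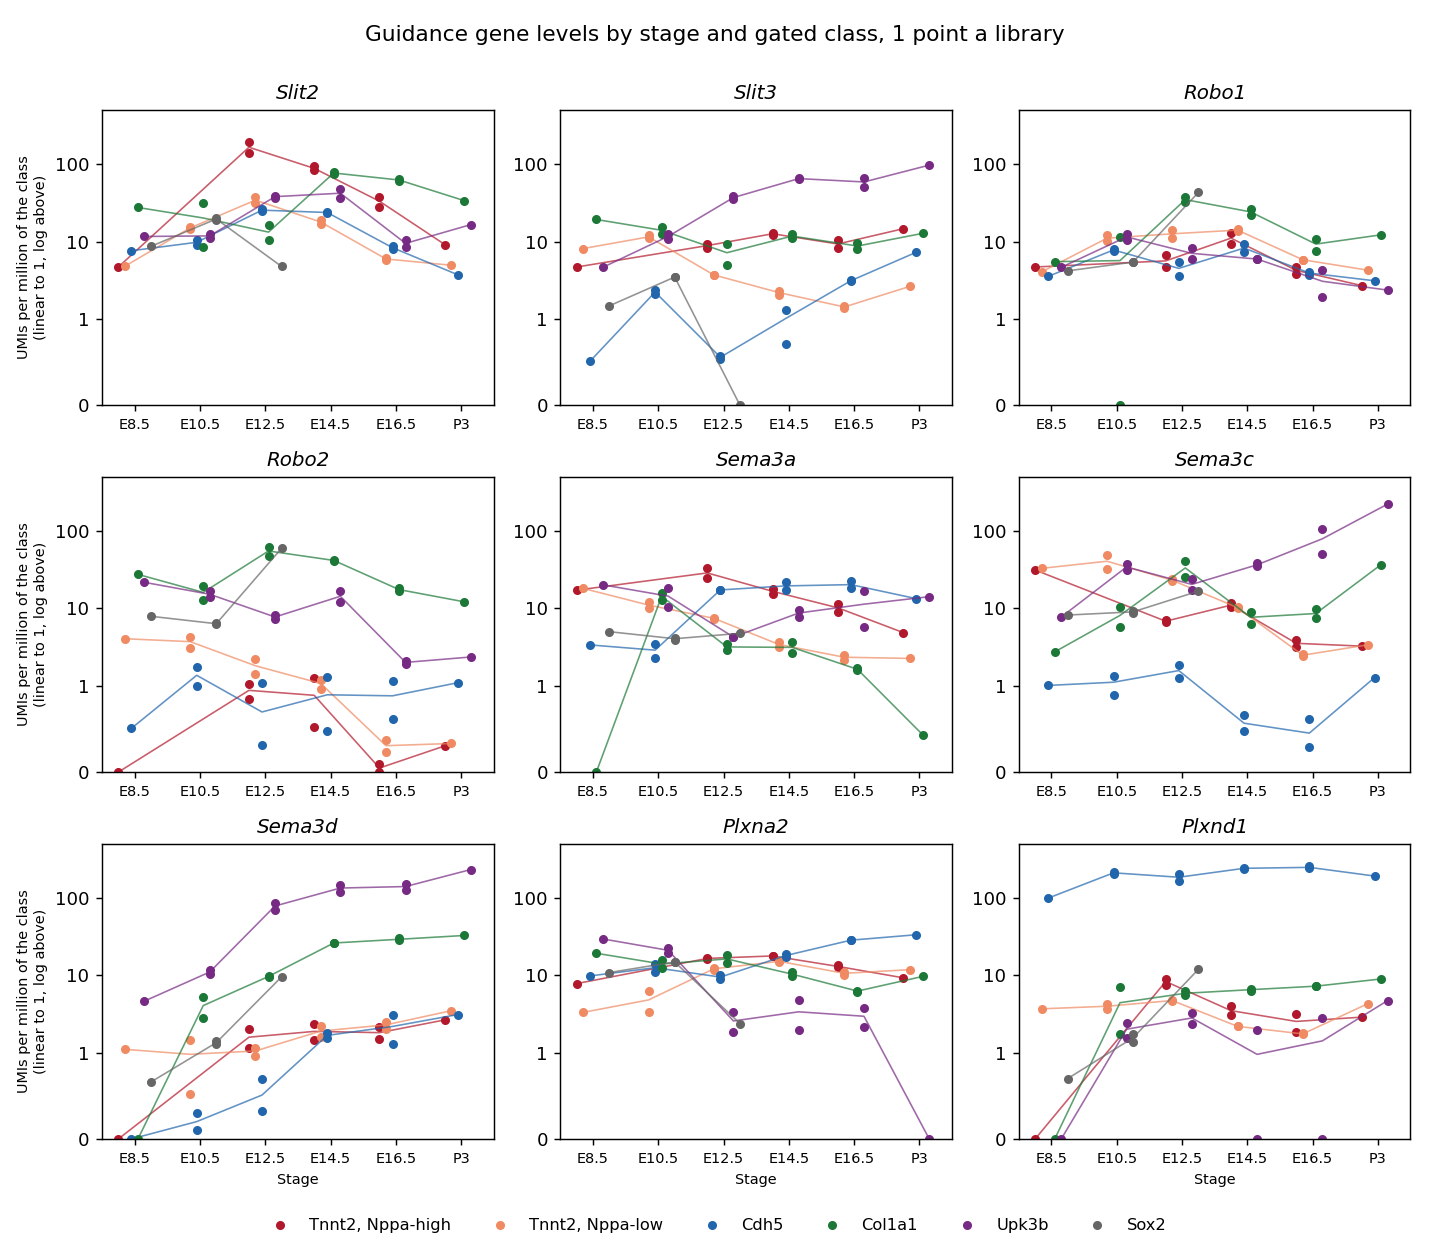
Level of each guidance gene (CPM, linear to 1 and logarithmic above) by stage and gated class, with 1 point a library. Slit2 sat highest in the Nppa-high class at E12.5 (139.7 and 189.8), Sema3d in the Upk3b class at each heart stage and Plxnd1 in the Cdh5 class at every stage shown.

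The Slit ligands were found in different classes of the heart. Slit2 was highest among Tnnt2 barcodes rich in Nppa at E12.5 and E14.5 and in the Col1a1 class at E16.5, and Slit3 was highest in the Upk3b class at each heart stage. In the Nppa-high class Slit2 stood at 139.7 and 189.8 CPM (E12.5), at 82.8 and 93.3 (E14.5) and at 28.3 and 38.1 (E16.5). In the Nppa-low class the same libraries gave 31.3 and 37.2, then 19.2 and 16.6, then 6.07 and 5.86. Nppa-high lay above Nppa-low in all 6 libraries, and the levels of both classes fell from stage to stage without overlap between stages. Over E12.5 to E16.5 Slit2 was 4.84-fold higher in the Nppa-high than in the Nppa-low class (log2 fold 2.27 ± 0.07 SE, edgeR adjusted p = 5.43e-25).

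From E12.5 to E16.5 Slit2 fell by 2.24 ± 0.12 on the log2 scale in the Nppa-high class (edgeR adjusted p = 1.46e-17) and by 2.34 ± 0.12 in the Nppa-low class (adjusted p = 1.47e-18). At P3 the levels were 9.17 (8.25 to 10.2) and 4.95 (4.45 to 5.49) CPM, each below both E16.5 libraries of its class. The barcodes of the 2 suffixes in the P3 matrix gave 9.59 and 7.48 CPM in the Nppa-high class and 4.15 and 6.58 in the Nppa-low class, where the higher of them lay above both E16.5 libraries. At E8.5 the Tnnt2 classes held only 4.70 (0.969 to 13.7) and 4.81 (2.56 to 8.22) CPM, on 26 and 125 barcodes. With barcodes above the mitochondrial ceiling of their stage left out, the Nppa-high change was smaller, at -1.14, and still passed the test.

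In the Col1a1 class, which holds collagen-producing mesenchymal barcodes, Slit2 moved the other way. It was at 10.4 and 16.1 CPM (E12.5), 75.0 and 78.4 (E14.5), 60.1 and 64.5 (E16.5) and 33.7 (31.1 to 36.5) at P3. The E12.5 libraries were low and did not overlap the later embryonic ones, a rise of 2.31 ± 0.19 on the log2 scale to E16.5 (edgeR adjusted p = 1.06e-12). In the Cdh5 class Slit2 fell from 24.5 and 26.4 to 8.66 and 8.01 (log2 fold -1.69 ± 0.19, adjusted p = 5.78e-09), and in the Upk3b class from 37.0 and 39.0 to 10.46 and 8.501 (log2 fold -2.01 ± 0.40, adjusted p = 0.000174). The E16.5 levels of the Upk3b class rest on 11 and 4 UMIs. At E14.5 that class held 48.1 and 36.0 CPM, on either side of the E12.5 libraries. P3 gave 3.73 (2.85 to 4.79) in the Cdh5 class and 16.6 (6.66 to 34.1) in the Upk3b class, on 21 barcodes. The rise in the Col1a1 class and the fall in the Cdh5 class differed by 4.00 ± 0.27 on the log2 scale (adjusted p = 3.21e-14).

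Slit3, the other Slit ligand measured here, was at 38.4 and 35.5 CPM in the Upk3b class at E12.5, 63.9 and 66.0 (E14.5), 66.6 and 51.0 (E16.5) and 96.9 (69.6 to 132) at P3. These lay above every other class of the same library, and the Upk3b class exceeded the mean of the others by 3.63 ± 0.10 on the log2 scale (edgeR adjusted p = 2.14e-27). The rise within the class to E16.5 was 0.67 ± 0.17 (adjusted p = 0.00344), but 0.39 without E16.5 replicate 1 (adjusted p = 0.561), on 36 barcodes of the other library. Slit3 was low in the Cdh5 class, at 0.574 and 0.539 CPM (E12.5), and rose there to 3.18 and 3.08 (E16.5), a log2 fold of 2.395 ± 0.35 (adjusted p = 8.4e-07). P3 gave 7.28 (6.03 to 8.71) in that class.

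Among Tnnt2 barcodes Slit3 was also higher in the Nppa-high class. It was at 9.42 and 8.33 CPM (E12.5), 12.2 and 13.1 (E14.5), 8.20 and 10.4 (E16.5) and 14.6 (13.5 to 15.9) at P3. The Nppa-low class held 3.74 and 3.69, then 2.34 and 2.05, then 1.47 and 1.39, and 2.64 (2.28 to 3.04) at P3, so the classes did not overlap and differed 4.23-fold (log2 fold 2.08 ± 0.09, edgeR adjusted p = 8.69e-21). Slit3 fell by 1.18 ± 0.14 in the Nppa-low class (adjusted p = 7.46e-09) and did not pass the test in the Nppa-high class (0.14 ± 0.14, adjusted p = 0.517). The 2 changes differed by 1.32 ± 0.21 (adjusted p = 1.82e-05).

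The Nppa-high class held both ventricular and atrial markers, and the Slit ligands separated when it was divided by Myl2, the ventricular myosin light chain gene, at 1000 CPM. Over the 6 libraries Irx4 and Hey2, which encode ventricular transcription factors, were at 37.6 to 64.0 and 27.6 to 50.3 CPM in the Myl2-high part, and at 0 to 2.25 and 0 to 1.28 in the Myl2-low part. Slit2 was at 169 and 224 CPM in the Nppa-high Myl2-high barcodes at E12.5, 114 and 123 (E14.5) and 36.7 and 52.5 (E16.5). In the Nppa-high Myl2-low barcodes it was at 6.96 and 11.2, then 10.9 and 17.3, then 12.8 and 14.8. Slit3 lay the opposite way, at 0.497 to 3.84 CPM in the Myl2-high and 17.6 to 45.5 in the Myl2-low part. In the Nppa-low Myl2-low barcodes Slit3 was at 19.9 to 35.1 CPM, within that range. The part of the Myl2 make-up of the Tnnt2 classes in their changes of Slit2 and Slit3 with stage was not tested. Set against Nppa-low Myl2-high barcodes, Nppa-high Myl2-low barcodes held less Slit2 (log2 fold -0.59, edgeR adjusted p = 0.000215, beside 42.4% of all genes that passed), which turned the direction found for the whole class. Within Myl2-high barcodes 5 members, not 8, differed between Nppa-high and Nppa-low, beside 29.7% of all genes tested there (32.9% for the whole classes), with Slit3 at 1.13 and Robo1 at -0.40 on the log2 scale, and Sema3c, Plxna2 and Plxnd1 no longer passed.

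**Figure D2:**
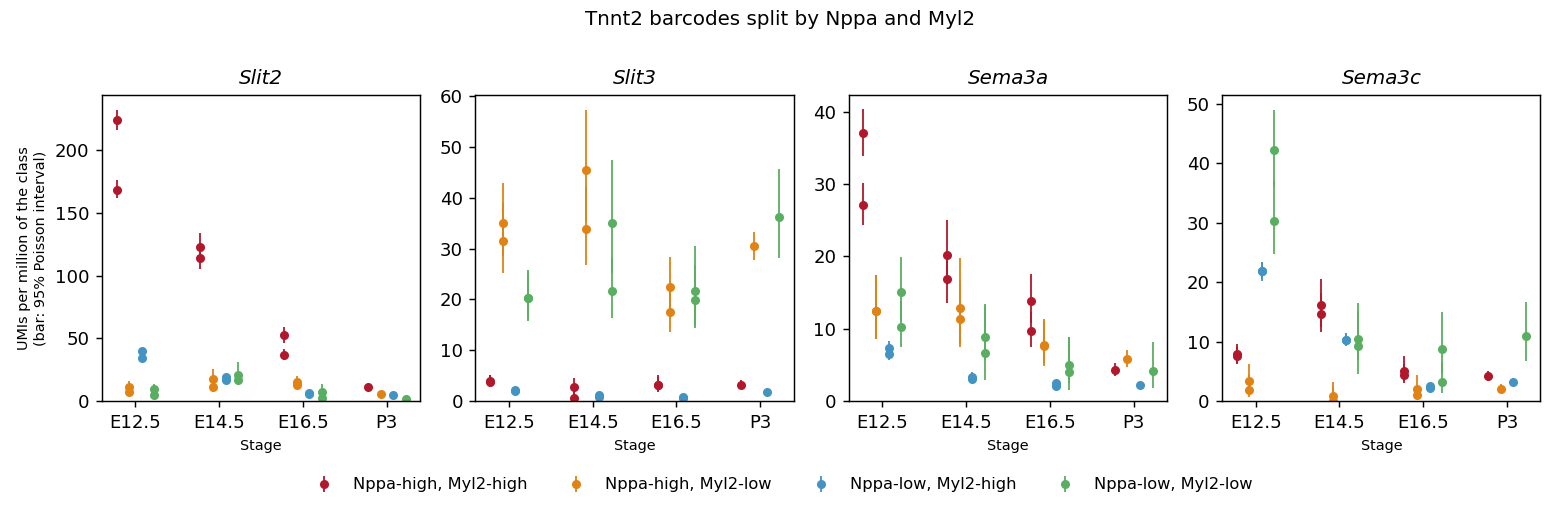
Levels of guidance genes (CPM, linear axis from 0) in Tnnt2 barcodes split by Nppa and Myl2 at 1000 CPM each, by stage, with 1 point a library and bars for 95% Poisson intervals. Slit2 was high in Nppa-high Myl2-high barcodes only, with 169 and 224 (E12.5) against 4.91 to 39.8 in the other parts, and Slit3 was high in Myl2-low barcodes.

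Levels among Tnnt2 barcodes also moved with the mitochondrial share of UMIs. In Nppa-high barcodes with under 1% mitochondrial UMIs, Slit2 was at 0 to 4.93 CPM over the 6 heart libraries of E12.5 to E16.5, and from 1% to the ceiling of the stage (7.5, 10 and 15%) at 24.3 to 89.1. The other members looked at in this way were low in the lowest band too: Slit3 was at 0 to 2.73 CPM there and 8.47 to 15.8 in the middle band. Sema3a was at 0 to 5.92 and 8.69 to 18.5, and Sema3c at 0 to 0.623 and 2.97 to 15.4. Barcodes of the lowest band were also shallower, with medians of 4462 to 4731 UMIs against 16546 to 30439 in the middle band. The lowest band held 66 to 302 Nppa-high and 177 to 876 Nppa-low barcodes a library. Above the ceiling Slit2 was at 234 and 304 CPM (E12.5), 198 and 227 (E14.5) and 107 and 61.1 (E16.5). Nppa-low barcodes showed the same order at E12.5, with 81.7 and 87.3 CPM of Slit2 above the ceiling and 22.4 and 25.1 in the middle band. Sema3a in the Nppa-high class was at 38.3 and 50.6 CPM above the ceiling and 14.9 and 18.5 in the middle band (E12.5). Over the 6 libraries the upper bands overlapped for Slit3, at 9.51 to 13.7 CPM above the ceiling and 8.47 to 15.8 in the middle band, and for Sema3c, at 1.36 to 14.3 and 2.97 to 15.4. Barcodes above the ceiling had medians of 5381 to 24279 UMIs. The part of the mitochondrial share and of depth in these results was not tested.

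**Figure D3:**
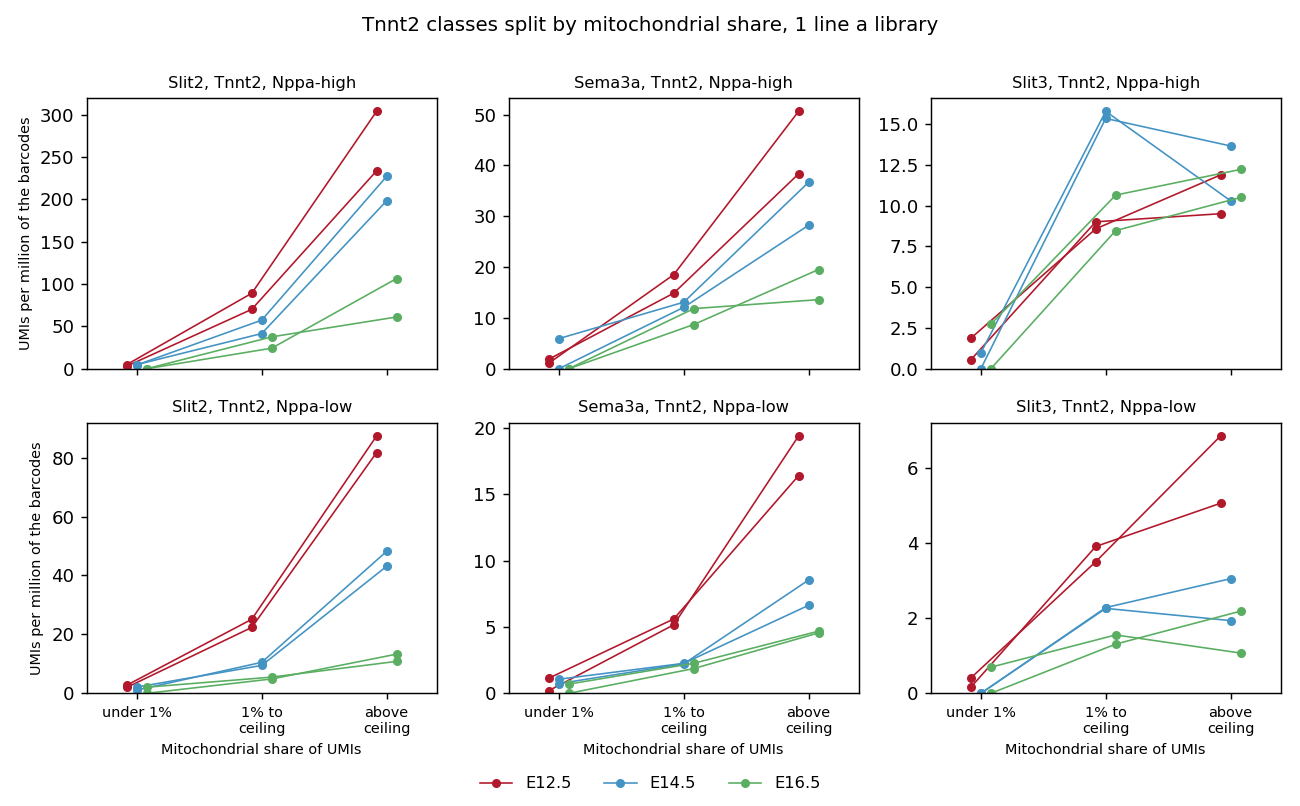
Levels in Tnnt2 barcodes (CPM, linear axis from 0) by share of mitochondrial UMIs, under 1%, from 1% to the ceiling of the stage and above the ceiling, with 1 line a library. Slit2 in the Nppa-high class ran from 0 to 4.93 in the lowest band to 61.1 to 304 in the highest.

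Robo1 and Robo2, the Slit receptors, were both highest in the Col1a1 class among the 5 classes tested at E12.5 and E14.5, and both fell there to E16.5. A Sox2 class of 24 barcodes in E12.5 replicate 2, the one heart library with at least 20 of them, held 43.0 (25.5 to 67.9) CPM of Robo1 and 59.7 (38.6 to 88.1) of Robo2, above the Col1a1 class of that library, and entered no test. Robo2 was at 62.3 and 48.0 CPM (E12.5), 42.0 and 41.3 (E14.5), 18.3 and 16.8 (E16.5) and 12.2 (10.6 to 13.9) at P3. In the E10.5 embryos the Col1a1 class held 12.8 and 19.4 CPM of Robo2, on 68 and 57 barcodes. From E12.5 on no library of a later stage reached one of an earlier stage. The change from E12.5 to E16.5 was -1.43 ± 0.17 on the log2 scale (edgeR adjusted p = 1.62e-08). In the other classes tested Robo2 was lower, at 0 to 1.25 CPM in Nppa-high, 0.236 to 2.24 in Nppa-low, 0.319 to 1.32 in Cdh5 and 1.90 to 16.7 in Upk3b, while barcodes of no gate held 17.4 and 16.51 (E12.5). The Col1a1 class exceeded the mean of the others by 4.73 ± 0.12 (adjusted p = 3.1e-29). In the Nppa-high class 1 UMI of Robo2 was counted over both E16.5 libraries and 30 over both E12.5 libraries. The ratio of pooled levels was 0.0570 (0.0014 to 0.343, counting error only). The lower Robo2 level of the Nppa-high against the Nppa-low class (log2 fold -1.29 ± 0.43, adjusted p = 0.0187) lost its call without E14.5 replicate 1 (-1.06), E16.5 replicate 1 (-2.17) or E16.5 replicate 2 (-1.15).

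Robo1 was at 32.4 and 37.1 CPM in the Col1a1 class at E12.5, 26.2 and 22.1 (E14.5), 7.62 and 10.95 (E16.5) and 12.2 (10.7 to 13.9) at P3, where the 2 suffixes gave 10.4 and 13.4. The class lay 1.45 ± 0.11 above the mean of the others (edgeR adjusted p = 5.2e-14), a value that was 0.72 with the Col1a1 gate at 2000 CPM, and fell by 1.79 ± 0.20 to E16.5 (adjusted p = 2.96e-09). Unlike the Slit ligands, Robo1 was lower in the Nppa-high than in the Nppa-low class. The Nppa-high libraries gave 4.65 and 6.62 CPM (E12.5), 9.25 and 12.9 (E14.5) and 3.86 and 4.65 (E16.5), and the Nppa-low libraries 11.2 and 13.96, then 13.8 and 14.3, then 5.79 and 5.86. Each Nppa-high value lay below both Nppa-low values of its stage (log2 fold -0.73 ± 0.10, adjusted p = 7.8e-07). Within Nppa-high barcodes Robo1 was at 5.10 to 16.9 CPM in the Myl2-high part and at 0.436 to 3.00 in the Myl2-low part, in which Slit3 was high.

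The semaphorins had 1 leading class each at E16.5, Sema3a in Cdh5 and Sema3c and Sema3d in Upk3b. Sema3a, known as a repellent that signals through neuropilin and plexin A receptors, was at 17.3 and 17.3 CPM in the Cdh5 class at E12.5, 21.8 and 17.3 (E14.5), 18.2 and 22.4 (E16.5) and 13.4 (11.7 to 15.3) at P3. The stages overlapped, and the change to E16.5 did not pass the test (0.12 ± 0.15, edgeR adjusted p = 0.59). The class lay 1.67 ± 0.09 above the mean of the others (adjusted p = 1.32e-18). Cdh5 barcodes rich in Npr3, a gene of the endocardium, at 100 CPM or more carried 34.9 and 46.7 CPM of Sema3a at E14.5 and 41.8 and 40.4 (E16.5), against 9.69 and 4.55, then 2.87 and 9.05, in Cdh5 barcodes with no Npr3 UMI.

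In the Nppa-high class Sema3a was at 24.5 and 33.0 CPM (E12.5), 15.2 and 18.1 (E14.5), 8.95 and 11.4 (E16.5) and 4.89 (4.22 to 5.63) at P3. The Nppa-low class held 7.30 and 7.62, then 3.67 and 3.17, then 2.52 and 2.17. From E12.5 to E16.5 every Nppa-high value was above every Nppa-low value, 4.09-fold over these stages (log2 fold 2.03 ± 0.10, edgeR adjusted p = 2.35e-19). Both classes fell to E16.5, by 1.43 ± 0.15 (adjusted p = 9.23e-10) and 1.47 ± 0.15 (adjusted p = 7.07e-11). With the mitochondrial ceiling the Nppa-high change was -0.49.

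Sema3c, a ligand of neuropilin with plexin A or Plxnd1, fell among Tnnt2 barcodes and rose in the Upk3b class from E12.5 to E16.5. In the Nppa-low class it was at 31.8 and 49.6 CPM in the E10.5 embryos, 22.6 and 23.7 (E12.5), 10.3 and 10.2 (E14.5), 2.55 and 2.43 (E16.5) and 3.40 (2.99 to 3.85) at P3, where the 2 suffixes gave 2.22 and 5.82, on either side of the E16.5 libraries. The stages from E12.5 to E16.5 did not overlap, and the change from E12.5 to E16.5 was 8.16-fold (log2 fold -3.03 ± 0.15, edgeR adjusted p = 1.9e-19). The Nppa-high class held 7.07 and 6.62 (E12.5), 10.4 and 11.6 (E14.5) and 3.20 and 3.896 (E16.5), a smaller change (-0.88 ± 0.27, adjusted p = 0.0101) that lost its call without E16.5 replicate 1 (-0.75). The 2 changes differed by 2.15 ± 0.34 (adjusted p = 2.71e-05). In the Upk3b class Sema3c was at 23.7 and 17.1 CPM (E12.5), 38.3 and 34.8 (E14.5), 107 and 51.0 (E16.5) and 222 (179.6 to 272) at P3, on 21 barcodes. The class of the E10.5 embryos held 31.0 and 37.5 CPM, above both E12.5 libraries. The stages did not overlap, and the rise to E16.5 was 2.06 ± 0.24 (adjusted p = 1.95e-08), but 1.26 without E16.5 replicate 1 (adjusted p = 0.0765).

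In the Col1a1 class Sema3c went down and then up again, at 41.5 and 25.1 CPM (E12.5), 9.06 and 6.32 (E14.5), 7.495 and 9.72 (E16.5) and 36.8 (34.1 to 39.7) at P3. The fall to E16.5 passed the test (log2 fold -1.71 ± 0.23, edgeR adjusted p = 1.49e-07). The P3 value rests on barcodes of 2 suffixes that differed, at 17.3 and 49.3 CPM, both above the E16.5 libraries. At E12.5 it was Col1a1 barcodes with no UMI of Tcf21, a gene of epicardium-derived fibroblasts, that carried most of it (64.8 and 28.4 CPM against 6.27 and 16.3).

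Sema3d, a class 3 semaphorin known for its part in the patterning of veins and neural crest cells, was at 70.5 and 86.5 CPM in the Upk3b class at E12.5, 119.9 and 148 (E14.5), 152 and 128 (E16.5) and 232 (188 to 282) at P3. From E12.5 to E16.5 a UMI of it was seen in 60.8 to 87.3% of Upk3b barcodes (median depth 9935 to 18107 UMIs) and in 0.541 to 2.08% of Cdh5 barcodes (11047 to 18624). With each barcode thinned to 2000 UMIs these were 12.7 to 26.9% and 0.0590 to 0.333%. Without thinning P3 gave 90.5% and 5.54%. The class exceeded the mean of the others by 5.22 ± 0.10 on the log2 scale (edgeR adjusted p = 1.23e-32). The rise within it to E16.5 was 0.80 ± 0.16 (adjusted p = 0.00018), but 0.62 without E16.5 replicate 1 (adjusted p = 0.124). The Col1a1 class came next, at 9.55 and 9.80 CPM (E12.5), 26.2 and 26.0 (E14.5), 30.1 and 28.3 (E16.5) and 32.7 (30.1 to 35.4) at P3. It rose by 1.77 ± 0.21 to E16.5 (adjusted p = 9.47e-09), and E12.5 was low in both libraries. The Tnnt2 classes of these 3 stages held 0.962 to 2.54 CPM.

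Plxnd1, the plexin of vascular endothelium, was found mostly in the Cdh5 class, where it was at 215 and 205 CPM in the E10.5 embryos, 165 and 203 (E12.5), 235 and 245 (E14.5), 239 and 256 (E16.5) and 191 (184 to 198) at P3. The 2 suffixes of P3 gave 157 (149 to 166) and 233 (222 to 244) CPM, both outside the interval of the whole matrix. The E8.5 library gave 99.2 CPM, the lowest of all. The class exceeded the mean of the other classes 64.5-fold (log2 fold 6.01 ± 0.06, edgeR adjusted p = 9.32e-44). A UMI of it was found in 82.8 to 89.9% of Cdh5 barcodes of the heart stages and in 0 to 5.46% of Upk3b barcodes, and after thinning in 27.6 to 37.1% and 0 to 0.732%. The rise with stage was small (0.33 ± 0.09, adjusted p = 0.00267) and lost its call without E12.5 replicate 1, at 0.17. In the Nppa-high class Plxnd1 fell from 7.59 and 9.05 CPM to 3.20 and 1.89 (-1.57 ± 0.22, adjusted p = 5.69e-07), and in the Nppa-low class from 4.78 and 4.67 to 1.78 and 1.73 (-1.24 ± 0.15, adjusted p = 9.39e-09). P3 gave 2.89 (2.38 to 3.47) and 4.33 (3.86 to 4.83) CPM in these classes, the latter above both E16.5 libraries and just under E12.5, with 2.82 and 7.43 in the 2 suffixes. No UMI of Plxnd1 was counted in the Upk3b class of E14.5 replicate 2 or E16.5 replicate 2.

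Plxna2, a plexin A receptor, was found in every class tested. In the Cdh5 class it was at 8.86 and 10.1 CPM (E12.5), 17.0 and 19.0 (E14.5), 28.3 and 28.6 (E16.5) and 33.4 (30.6 to 36.3) at P3. There the 2 suffixes gave 30.2 and 37.4 CPM, both outside that interval and above the E16.5 libraries. The stages did not overlap, and the rise to E16.5 was 2.80-fold (log2 fold 1.49 ± 0.12, edgeR adjusted p = 5.53e-13). In the Col1a1 class it went from 18.3 and 14.3 to 10.99 and 9.73 and then to 6.17 and 6.36 (-1.15 ± 0.19, adjusted p = 7.67e-06), and P3 gave 9.68 (8.32 to 11.2). The changes of these classes differed by -2.63 ± 0.22 (adjusted p = 1.24e-11). The Tnnt2 classes held 10.2 to 17.8 CPM from E12.5 to E16.5, and the Upk3b class 1.84 to 4.80.

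Free RNA in the droplets was gauged from Tnnt2. In the Cdh5, Col1a1 and Upk3b classes Tnnt2 reached 2.55 to 6.02% of its level in barcodes with under 100 UMIs, and the same shares of the members' levels there came to at most 1.77 CPM for Slit2, 0.179 for Slit3 and 2.14 for Plxnd1. The levels of Slit2 in these classes (8.01 to 78.4 CPM) lay above that. Plxnd1 in the Upk3b class was at 1.965 to 3.27 CPM in 4 libraries, each above its own share (0.835 to 2.14). It was at 0 in E14.5 replicate 2 and E16.5 replicate 2. Those 4 levels rest on 2 to 16 UMIs, and in all but E12.5 replicate 1 the Poisson interval took in the share. No such share can be set for the Tnnt2 classes, since Tnnt2 is their own gene. The low-count barcodes themselves held 2724 to 5649 CPM of Tnnt2, above the gate of 1000 CPM. Whether free RNA carried barcodes over that gate was not tested. In the Nppa-low class Robo2 (2.24 and 1.41 CPM at E12.5, 0.377 and 0.236 at E16.5) lay below its level in barcodes with under 100 UMIs, which itself fell, from 2.92 and 5.20 to 0.676 and 0.663. Sema3d there lay below that level too, and the level rose with it, from 1.72 and 2.04 to 4.06 and 2.65. Plxnd1 also lay below that level in the Nppa-low class in each of these libraries, as did Robo2 and Plxnd1 in the Nppa-high class and, at E16.5, Slit2, Slit3 and Sema3a in the Nppa-low class. The part of free RNA in the changes of the Tnnt2 classes was not tested.

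1 model of 40 sums (20 groups of stage and class from E10.5 to E16.5, 2 libraries each, 14565 genes tested) gave a call for each member. A call is a Benjamini-Hochberg adjusted p under 0.05 over all genes tested, and beside each count stands the share of all tested genes that passed. Each value is a mean over stages and, for a class, is set against the mean of the other classes and not against each. Beside several values, but not all, stands the difference within a library, in mean log2(CPM + 1), where the direction turned. Between the Nppa-high and the Nppa-low class 8 of the 9 members passed, where 32.9% of all genes did. Slit2, Slit3, Sema3a, Plxna2 (0.26 ± 0.06) and Plxnd1 (0.64 ± 0.13) were higher and Robo1, Robo2 and Sema3c (-0.45 ± 0.12) lower in the Nppa-high class, and Sema3d was at -0.03 ± 0.19. The Sema3c value came from E12.5 (-1.55 and -1.69), while in the 4 libraries of E14.5 and E16.5 the Nppa-high class was the higher one, by 0.018 to 0.512. Robo2 was higher in the Nppa-high class in E14.5 replicate 2 (0.199). Between the Tnnt2 classes and the others 7 members passed, beside 73.1% of all genes, so a call was the rule there. Slit2 (0.61 ± 0.07), Sema3a (0.41 ± 0.10) and Plxna2 (1.00 ± 0.08) were higher, and Slit3 (-0.61 ± 0.09), Robo2 (-3.12 ± 0.37), Sema3d (-2.83 ± 0.15) and Plxnd1 (-1.85 ± 0.30) lower. Slit2 and Sema3a were higher in the Tnnt2 classes at E12.5 (1.60 and 1.68 for Slit2, 1.01 and 1.18 for Sema3a), but at E14.5 and E16.5 the differences ran from -0.395 to -0.044 and from -0.712 to 0.004. With the mitochondrial ceiling Slit2 and Sema3a were at -0.16 and -0.18, neither past the threshold. Sema3a also lost its call without TMM scaling (0.22), and Plxnd1 without E14.5 replicate 1 (-1.09) or E16.5 replicate 1 (-1.04).

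All 9 members differed between the Cdh5 class and the others, beside 66.9% of all genes. Plxnd1, Sema3a and Plxna2 (0.93 ± 0.08) were higher. At E12.5 Plxna2 did not stand out there (-0.241 and 0.140), with both Tnnt2 classes and the Col1a1 class above the Cdh5 class, and Sema3a was higher still in the Nppa-high class. Sema3c (-4.16 ± 0.20), Slit3 (-3.12 ± 0.12), Sema3d (-2.90 ± 0.16), Robo2 (-1.78 ± 0.43), Slit2 (-0.97 ± 0.10) and Robo1 (-0.77 ± 0.16) were lower. The Robo2 call was lost without E16.5 replicate 1 (-1.69), and Slit2 was at -0.56 with the mitochondrial ceiling. Of the Col1a1 class 8 members passed, beside 61.7% of all genes: besides Robo1 and Robo2, Sema3d (1.93 ± 0.12), Sema3c (0.83 ± 0.14), Slit2 (0.41 ± 0.09) and Slit3 (0.40 ± 0.10) were higher, and Sema3a (-2.08 ± 0.17) and Plxnd1 (-0.53 ± 0.19) lower. The Slit2 value averages opposite directions: at E12.5 the Col1a1 class was the lowest of the 5 (-2.01 and -1.63), and in the later libraries it lay 1.01 to 2.41 above the mean of the others. Slit3 was lower in E12.5 replicate 1 (-0.314), Sema3c in E14.5 replicate 2 (-0.390), and Plxnd1 was higher in E16.5 replicate 2 (0.299). The lower Plxnd1 value is against the mean, in which the Cdh5 class held 165 to 256 CPM, and not against each class. In each library the Col1a1 class (5.51 to 7.25 CPM) lay above the Nppa-low (1.73 to 4.78) and Upk3b (0 to 3.27) classes. It lay below the Nppa-high class at E12.5 only. Slit2 was at 2.62, Slit3 at 1.58 and Sema3d at 3.11 when the Col1a1 gate was set at 2000 CPM, where Sema3c lost its call (0.70) and Plxna2 (-0.17 ± 0.11 otherwise) gained one (-1.36). Slit3 lost its call without E12.5 replicate 2 (0.19), and Plxnd1 was at 0.04 without E14.5 replicate 1, at 0.15 without E16.5 replicate 1 and at -0.41 without E12.5 replicate 2, none past the threshold.

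The Upk3b class differed from the others in 7 members, beside 51.1% of all genes. Sema3d, Slit3, Sema3c (3.00 ± 0.16) and Robo2 (1.73 ± 0.52) were higher. Plxnd1 (-2.71 ± 0.29), Plxna2 (-2.26 ± 0.20) and Robo1 (-0.997 ± 0.28) were lower. Without E16.5 replicate 1 the calls of Robo1 (-0.84) and Robo2 (2.07) were lost and Plxnd1 was at -5.30, and without E14.5 replicate 1 Plxnd1 was at -5.02. Slit2 (-0.35 ± 0.17, edgeR adjusted p = 0.0785) passed without E12.5 replicate 1 (-0.48) or E14.5 replicate 1 (-0.49), and Sema3a (-0.20 ± 0.22) did not pass.

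**Figure D4:**
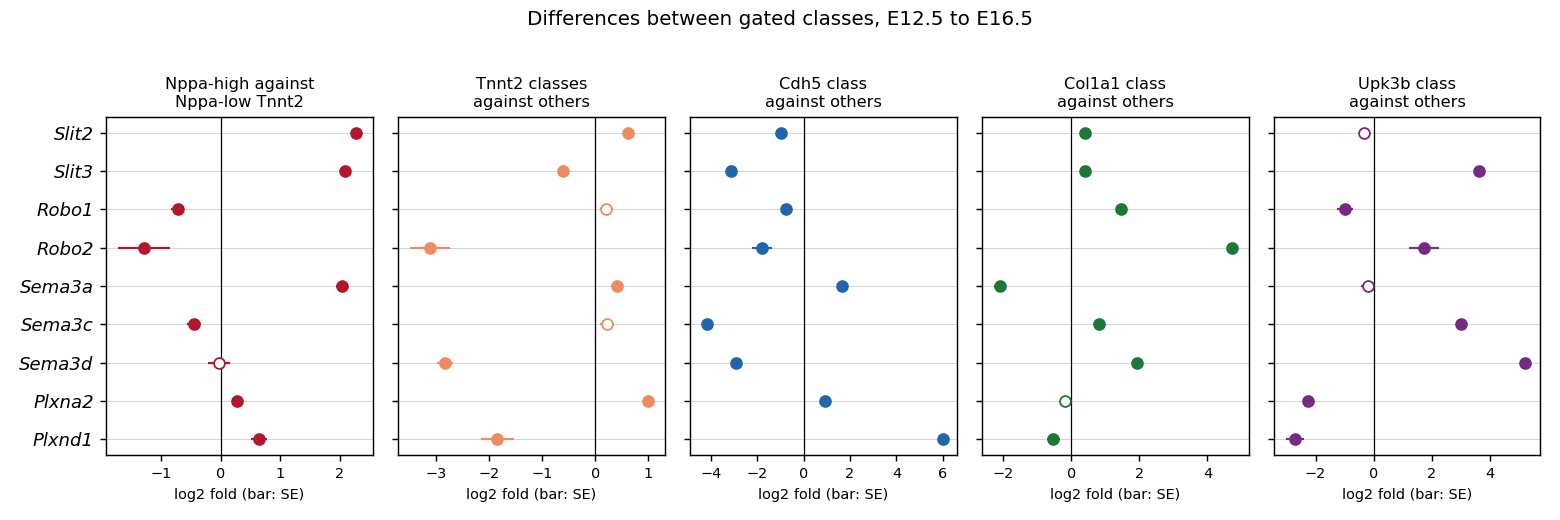
Fitted log2 fold of each guidance gene between gated classes (x axis, log2; bars are standard errors), with 1 panel a comparison. The far points are Plxnd1 in the Cdh5 class (6.01), Sema3d in the Upk3b class (5.22) and Robo2 in the Col1a1 class (4.73).

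In the E10.5 embryos the Sox2 class, which held 4361 and 4193 barcodes, was compared with the other classes of that stage. There 6 members passed, beside 56.8% of all genes, and the median over all genes was itself 0.24. Slit2 (0.71 ± 0.14) and Plxna2 (0.54 ± 0.11) were higher and Plxnd1 (-2.42 ± 0.32), Slit3 (-1.04 ± 0.14), Sema3a (-0.97 ± 0.18) and Robo1 (-0.53 ± 0.21) lower in the Sox2 class. Slit2 was at 20.2 and 18.9 CPM in it and Plxna2 at 14.997 and 14.7, against 9.09 and 10.49, and 13.99 and 11.1, in the Cdh5 class and 8.53 and 31.8, and 15.6 and 12.4, in the Col1a1 class of the same libraries. The Upk3b class held 11.1 and 12.6 CPM of Slit2 and the Nppa-low class 14.6 and 15.4. Plxna2 was at 19.4 and 22.7 CPM in the Upk3b class, above the Sox2 class in both libraries, and at 6.26 and 3.37 in the Nppa-low class, so its higher value is against the mean of the other classes and not against each. Robo1 was at 0 CPM in the Col1a1 class of E10.5 replicate 2, on 57 barcodes, and without E10.5 replicate 1 its value was 1.88 and not past the threshold. Slit2 was at 0.44 without E10.5 replicate 1 and at 1.12 without E10.5 replicate 2, both past it.

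With stage, the members moved in both directions. From E12.5 to E16.5 in the Nppa-high class 5 members fell and none rose, beside 32.7% of all genes that passed: Slit2, Robo2, Sema3a, Sema3c and Plxnd1. The Robo2 call was lost without E16.5 replicate 2 (-3.13), and without E16.5 replicate 1 no Robo2 UMI was left at E16.5. In the Nppa-low class 8 passed, beside 56.7%: Sema3d rose (1.30 ± 0.21, edgeR adjusted p = 1.96e-06) and the others fell, among them Robo2 (-2.28 ± 0.30) and Robo1 (-0.94 ± 0.12). Plxna2 was at -0.02 ± 0.08 there.

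In the Cdh5 class 6 members passed, beside 38.7% of all genes. Slit3, Plxna2, Sema3d (1.85 ± 0.51) and Plxnd1 rose and Slit2 and Sema3c (-1.98 ± 0.71) fell. Sema3d lost its call without E16.5 replicate 2 (1.204), and Sema3c without E12.5 replicate 2 (-1.67) or E16.5 replicate 1 (-1.45). In the Col1a1 class 6 passed, beside 30.7%: Slit2 and Sema3d rose and Robo1, Robo2, Sema3c and Plxna2 fell. Slit3 (0.31 ± 0.22) did not pass, but was at 1.08 and past the threshold without E12.5 replicate 2. In the Upk3b class 4 passed, beside 21.9%: Slit3, Sema3c and Sema3d rose and Slit2 fell. Without E16.5 replicate 1 the count was 1, beside 8.5% of all genes, and without E12.5 replicate 1 it was 5, beside 18.9%, with Robo2 (-2.17) added. Without E12.5 replicate 2 it was 4, beside 18.7%. Robo2 in that class had 3 UMIs at E16.5 and 71 (E12.5) over both libraries, a ratio of pooled levels of 0.253 (0.0510 to 0.770). That interval covers counting error only and not the spread between libraries, and Robo2 did not pass the test in the main fit.

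**Figure D5:**
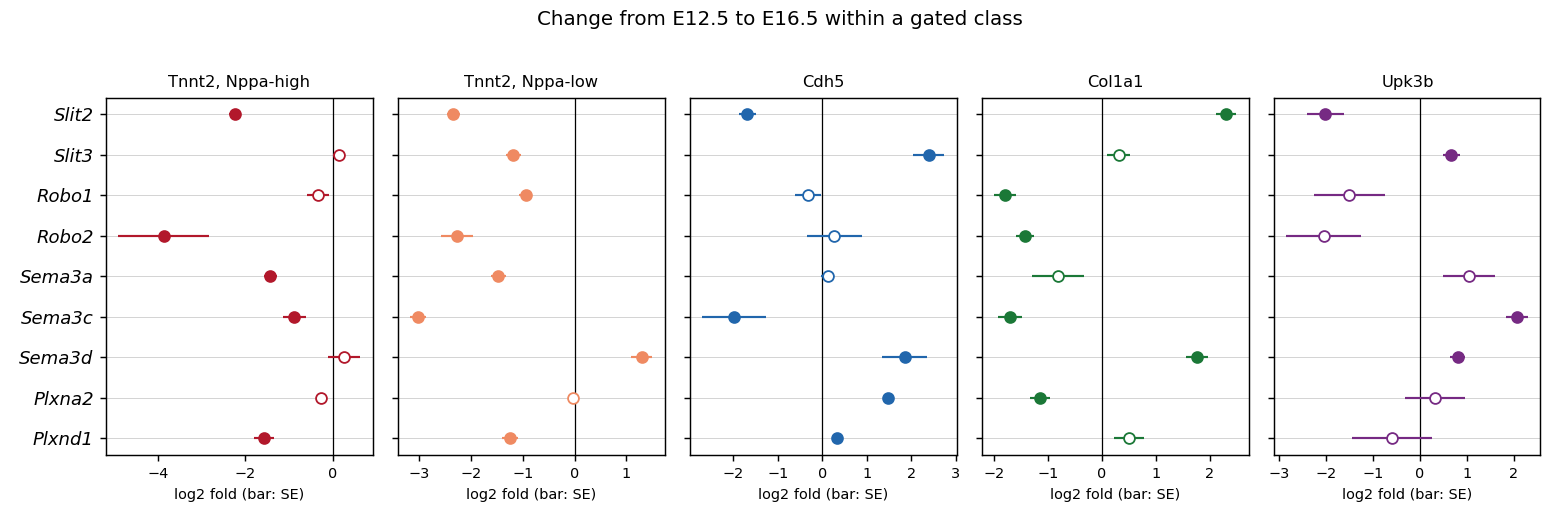
Fitted log2 fold of each guidance gene from E12.5 to E16.5 in each gated class (x axis, log2; bars are standard errors). Slit2 lay at 2.31 in the Col1a1 class and between -2.34 and -1.69 in the 4 others, while Sema3c rose in the Upk3b class alone.

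Whether a change with stage differed between classes was tested for 2 pairs. Between the Nppa-high and Nppa-low classes 2 members passed, beside 7.69% of all genes, Slit3 and Sema3c, as given above. Between the Col1a1 and Cdh5 classes 4 passed, beside 18.8%: Slit2 and Plxna2, as given above, and Slit3 (-2.08 ± 0.42, edgeR adjusted p = 0.000234) and Robo1 (-1.48 ± 0.38, adjusted p = 0.0036). Slit3 lost its call without E12.5 replicate 2 (-1.25) and Robo1 without E16.5 replicate 1 (-1.28). These comparisons share libraries with those above.

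The wider guidance list held 47 further ligands, receptors and downstream genes, of which 44 could be tested. In the Cdh5 class 18 of these were higher and 21 lower, 88.6% beside the 66.9% of all genes given above, with a median log2 fold of -0.29 beside -0.01 over all genes. In the other comparisons of classes the share that passed lay nearer to that of all genes. Robo4, the endothelial Robo receptor, was at 6.94 ± 0.17 and Crmp1, a cytosolic mediator of semaphorin signals, at 6.66 ± 0.16, while Dpysl5, of the same family as Crmp1, was at -4.91 ± 0.43. Of the Col1a1 class 20 were higher and 10 lower (68.2% beside 61.7% of all genes, median 0.46 beside 0), led by Dpysl4 (4.69 ± 0.31) and, downward, by the ligand gene Sema3g (-3.91 ± 0.72). Of the Upk3b class 15 were higher and 9 lower (54.5% beside 51.1%, median -0.06 beside -0.11), with Dpysl5 at 6.44 ± 0.18, Sema3e, whose product binds Plxnd1, at 5.12 ± 0.66 and Dpysl3 at -2.99 ± 0.09. In the Tnnt2 classes 65.9% passed beside 73.1% of all genes: 15 were higher, led by Mical3 (2.75 ± 0.05), and 14 lower, led by the ligand gene Sema3f (-6.10 ± 0.22) and Nrp2 (-4.27 ± 0.11), which encodes a neuropilin co-receptor. Between Nppa-high and Nppa-low 9 were higher and 4 lower (29.5% beside 32.9%), among the latter Nrp2 (-1.24 ± 0.21). In the Sox2 class 12 were higher and 12 lower (54.5% beside 56.8%).

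From E12.5 to E16.5 the wider list rose in 14 and fell in 4 of its tested genes in the Cdh5 class, 40.9% beside 38.7% of all genes (median 0.13 beside 0), where Nrp2 rose by 3.01 ± 0.10 and the ligand gene Sema7a by 5.08 ± 0.41. In the Nppa-low class 14 rose and 16 fell (68.2% beside 56.7%), among these Nrp2 (-2.52 ± 0.18). In the Nppa-high class 7 rose and 3 fell (22.7% beside 32.7%), in the Col1a1 class 6 rose and 12 fell (40.9% beside 30.7%), and in the Upk3b class 6 rose and 2 fell (18.2% beside 21.9%). Sema5a, a transmembrane semaphorin gene, rose by 2.098 ± 0.19 in the Nppa-high, 1.56 ± 0.11 in the Nppa-low and 2.36 ± 0.18 in the Col1a1 class. For the differences between changes, 6 genes were higher and 1 lower in the Tnnt2 pair (15.9% beside 7.69%), and 2 higher and 12 lower in the pair of Col1a1 and Cdh5 (31.8% beside 18.8%).

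Over the 40 sums, which share libraries, the genes most like each member in log2(CPM + 1) are given as a description. Plxnd1 went with Gimap6 (Pearson r 0.973), She (0.971) and Cd93 (0.971). Sema3d went with Fmod (0.955), Bicc1 (0.953) and Zbtb8a (0.95), Robo2 with Clmp (0.959), Rac3 (0.940) and Foxp2 (0.936), and Slit3 with Rpp25 (0.904), Sdc4 (0.899) and Colec12 (0.899). Sema3c went with Wnt5a (0.867), 2010320M18Rik (0.863) and Wwc1 (0.857). The other members had looser company: Robo1 had Stk17b (0.791), Tbx3os1 (0.744) and Gpr161 (0.733), Plxna2 had Adgrl2 (0.748), Eif4e3 (0.730) and Tbc1d22b (0.730), Slit2 had Chid1 (0.739), Hspa5 (0.716) and Cdo1 (0.670), and Sema3a had Uhmk1 (0.726), Slc6a6 (0.691) and Mest (0.653). Among the members themselves the closest pair was Slit3 and Sema3d (0.806), and Sema3c and Plxnd1 ran most opposed (-0.749).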

How the data were processed

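Single-cell RNA was measured in 13 samples at 6 stages. Counts were deposited by the authors as raw UMI counts per gene and barcode, made with Cell Ranger on mm10 (matrix headers name 3.1.0, and 3.0.0 for P3; the submitters' processing notes name 2.1.1 and Seurat 3.1.1). The embryonic matrices list all 737280 possible barcodes and the P3 matrix 10964 filtered ones. Total counts ran from 67141166 to 259041468 UMIs a matrix, and no column of another series was present (0 unused). E8.5 replicate 1 was not analysed here.

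Barcodes with at least 2000 UMIs were gated, and counts were summed per library and class. Sums of classes with at least 20 barcodes in both libraries of a stage (E10.5 to E16.5) entered 1 edgeR 4.0.16 quasi-likelihood fit in R 4.3.3 (TMM, filterByExpr, Benjamini-Hochberg adjustment over 14565 genes, threshold 0.05), tested on simulated data. Each class comparison set the mean of a class against the mean of the other classes of the same stages. DESeq2 1.42.0 was an alternative. Other settings changed the scaling, the filters, each gate, the mitochondrial share and the libraries used, and a floor of 1% mitochondrial UMIs was chosen after seeing the data. Levels, shares and intervals used Python 3.11.15 with scipy 1.17.1, and thinning drew 2000 UMIs a barcode.

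In each comparison the members that passed are given, and those that did not pass are not all named. Of the wider list at most 2 genes that rose and 2 that fell are named, those with the largest fitted log2 fold. For likeness, the 3 genes with the highest Pearson r were named for each member. The members and lists were chosen with earlier results of these data known, and the splits by Npr3 and Tcf21 were chosen after values were seen. Libraries of 1 stage and class differed beyond counting noise (chi-square per degree of freedom 2.05 to 23.0), so none was counted as a copy of another. Libraries loaded from 1 cell suspension could differ in this way too, so it does not show that they came from separate animals. Replicate numbers did not pair libraries across stages (correlation of deviations from -0.18 to 0.43, median 0.01). Between classes of the same library the median correlation was 0.087 (E10.5), 0.545 (E12.5), 0.068 (E14.5) and 0.246 (E16.5). The p-values of the main fit leave this pairing out, and the library as a block was an alternative setting.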

Additional observations from a re-analysis of the deposited data

Results flagged for a closer look

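For 6 values the change from E12.5 to E16.5 differed between 2 classes by a test of the difference itself (edgeR, adjusted over all genes tested). Between the Nppa-high and the Nppa-low class the log2 changes differed by 1.32 ± 0.21 for Slit3 (adjusted p = 1.82e-05) and by 2.15 ± 0.34 for Sema3c (adjusted p = 2.71e-05), and both kept their call in each setting tried. Sema3c fell more in the Nppa-low class, and Slit3 fell in the Nppa-low class and did not pass the test in the Nppa-high class. Each of these classes held Myl2-high and Myl2-low barcodes, and in the Nppa-high class Slit3 was higher in the Myl2-low ones. The part of this make-up in these differences was not tested.

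Between the Col1a1 and the Cdh5 class they differed by 4.00 ± 0.27 for Slit2 (adjusted p = 3.21e-14), which rose in the Col1a1 and fell in the Cdh5 class. For Slit3 the difference was -2.08 ± 0.42 (adjusted p = 0.000234), for Robo1 -1.48 ± 0.38 (adjusted p = 0.0036) and for Plxna2 -2.63 ± 0.22 (adjusted p = 1.24e-11). Plxna2 fell in the Col1a1 class and rose in the Cdh5 class. In the Col1a1 class the change of Slit3 alone did not pass, and in the Cdh5 class that of Robo1 alone did not pass. The Col1a1 class grew from 164 and 389 barcodes at E12.5 to 552 and 510 at E16.5, and the part of its make-up in these differences was not tested.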

How the results depend on the processing

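Of values that passed the test, 1541 of 1592 alternatives kept direction and call, 45 lost the call and 6 reversed; of those that had not passed, 418 of 480 stayed so, 27 gained a call and 35 changed sign. The number of members called stayed within 1.5 times its main value in 253 of 255 cases. The exceptions were Nppa-high against Nppa-low among Myl2-high barcodes (5) and the Upk3b change with stage (range 1 to 5 with a library left out). The library as a replicate block changed no number of members called (9 in the Cdh5 class under the block as without it). A floor of 1% mitochondrial UMIs, chosen after seeing the data, reversed none. Few UMIs limit Robo2 in the Tnnt2, Cdh5 and Upk3b classes, Sema3c and Sema3d in the Cdh5 class, and Robo1, Plxna2 and Plxnd1 in the Upk3b class. At E16.5 they limit Slit2 in the Upk3b class too. The cause was not tested for any value below.

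For the Nppa comparison Slit2 was at -0.59 in Nppa-high Myl2-low against Nppa-low Myl2-high barcodes, and Sema3d was at 0.25 there, 0.013 with DESeq2, 0.025 without TMM, 0.081 with the mitochondrial ceiling and -0.26 to 0.16 with a library left out. With the ceiling, Slit2 and Sema3a were at -0.16 and -0.18 in the Tnnt2 classes and at 0.030 and 0.078 in the Upk3b class, where Sema3a ranged from -0.52 to 0.046 with a library left out. Robo1 in the Tnnt2 classes was at -0.040 with Nppa at 3000 CPM. In the Col1a1 class Plxna2 was at 0.014 without TMM and Plxnd1 ranged from -0.58 to 0.15. In the Sox2 class Robo2 was at -0.036 and Sema3c at 0.52 with Tnnt2 at 3000 CPM, Robo2 at -0.062 with gates of 1 UMI, and Sema3d at 1.24 with Nppa at 300 CPM and 0.11 with Col1a1 at 2000 CPM, while leaving out a library gave -0.80 to 1.88 for Robo1, -0.26 to 0.24 for Sema3c and -0.21 to 0.073 for Sema3d; the Plxna2 call there was lost with Tnnt2 at 3000 CPM (0.019).

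For changes with stage, Plxna2 in the Nppa-low class was at 0.12 with the ceiling, 0.052 with Tnnt2 at 3000 CPM, 0.044 with Nppa at 300 CPM and -0.019 to 0.048 with a library left out. In the Nppa-high class the latter gave -0.0081 to 0.30 for Slit3 and -0.13 to 0.72 for Sema3d. In the Cdh5 class Robo2 was at -0.59 with gates of 1 UMI and Sema3a at -0.021 with gates of 4 UMIs, and leaving out a library gave -0.32 to 1.43 for Robo2, -0.023 to 0.29 for Sema3a and -0.57 to 0.0028 for Robo1. In the Upk3b class Plxna2 was at -0.29 with Tnnt2 at 3000 CPM, -0.13 with gates of 1 UMI and -0.32 to 0.71 with a library left out.

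Over all genes, the difference between the Tnnt2 classes in change with stage held 1120 genes, 691 with the ceiling, 1920 with the replicate block and 586 or 594 without E16.5 replicate 1 or 2; the Col1a1 class held 8980, and 5852 with its gate at 2000 CPM; the Upk3b change held 3188, and 1268 without E16.5 replicate 1; and the Col1a1 and Cdh5 difference held 2743, and 1764 without E16.5 replicate 1. Without TMM the median over all genes moved by over 0.1 in 6 of 13 comparisons, to -0.24 in the Col1a1 and Cdh5 difference and up by 0.18 in the Col1a1 class, and with DESeq2 by -0.25 in the Sox2 class. The share of passing genes that were higher was 43.4% for the Nppa comparison, 55.6% with DESeq2 and 60.4% without TMM, 67.0, 48.1 and 54.6% in the Sox2 class, and 48.3 and 64.8% (DESeq2) for the Upk3b change. Without TMM it went from 55.0 to 44.8% in the Tnnt2 classes, 53.5 to 68.1% in the Col1a1 class, 47.1 to 68.9% and 54.3 to 25.1% for the differences, and 50.4 to 37.8%, 50.3 to 33.2%, 48.6 to 58.8% and 47.7 to 29.0% for the Nppa-high, Nppa-low, Cdh5 and Col1a1 changes.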

Other observations

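Within the Col1a1 class the members lay differently by Tcf21, a gene of epicardium-derived fibroblasts. At E14.5 barcodes with a Tcf21 UMI held 118 and 110.3 CPM of Slit2 against 52.3 and 60.8 without it, and 37.0 and 36.3 CPM of Sema3d against 20.6 and 20.4. Robo1 lay the other way, at 14.02 and 14.1 CPM with Tcf21 and 32.6 and 26.5 without it, and so did Plxna2, at 5.61 and 7.41 against 13.8 and 11.02. At P3 Sema3c was at 39.8 CPM with Tcf21 and 21.3 without it, the reverse of its order at E12.5.

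Within the Cdh5 class Slit3 at P3 was at 31.1 CPM in Npr3-rich barcodes and 0.365 in those with no Npr3 UMI, and at E16.5 at 7.90 and 6.53 against 0 and 1.09. Slit2 followed the same order at E14.5, at 33.0 and 31.4 against 14.1 and 17.0 CPM, and Robo1 the opposite one, at 3.56 and 5.32 against 10.7 and 10.2. In the single E8.5 library, made from embryos, Sema3c was at 31.3 (19.1 to 48.4) CPM in the Nppa-high and 32.9 (26.4 to 40.5) in the Nppa-low class, and Sema3a at 17.2 (8.60 to 30.8) and 18.1 (13.4 to 24.0). These splits were chosen after their values were seen and were not tested.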
